A study of Homo sapiens with 3 samples.

Results

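To describe the proteasome genes of LX-2 cells, an established human hepatic stellate cell line, the protein-coding genes whose symbols join PSMA, PSMB, PSMC, PSMD, PSME, PSMF or PSMG to a number were taken from the deposited expression table. The rule found 47 genes among the 26108 listed, and 46 of them were among the 12447 genes whose FPKM (fragments mapped to a gene, scaled to transcript length and to library size) averaged 0.5 or more across the 3 libraries. The 3 libraries were poly(A)-selected mRNA from 1 culture with vehicle, 1 with recombinant human FGF19 (rhFGF19) at 50 ng/mL, the lower dose, and 1 with 100 ng/mL, the higher dose. LX-2 is a single immortalized line, and the cultures carried no other treatment that the labels name. The titles and the agent field give the doses used here, whereas the description field exchanges them, and it gives 72 h and 73 h where the series design gives 24 h. The study asked whether FGF19, a growth factor, moves stellate cells toward an inflammatory fibroblast state. With 1 library per condition no difference had a replicate check, and no p-value was computed. Both comparisons use the same vehicle library and are not independent of each other. Fold changes are differences of log2(FPKM + 0.1), a scale that understates the change of low genes.

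The proteasome is the protease that degrades ubiquitin-tagged proteins in the cytosol and nucleus. Its 20S core is a barrel of stacked rings, in which the outer alpha rings gate the entry and the inner beta rings carry the proteolytic sites. The 19S cap binds ubiquitin chains, removes them and feeds the unfolded substrate into the core through a ring of ATPases. Interferon replaces the catalytic beta subunits with immunoproteasome subunits that favour peptides for MHC class I. Dedicated chaperones assemble the core and the base of the cap.

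The label of the cells was checked first. Of 14 stellate cell or fibroblast markers, 13 were listed and 9 had at least 1 FPKM in every library, with VIM (vimentin) at 438.65 and COL1A1 at 78.35 FPKM in vehicle. LRAT, the retinol-esterifying enzyme of quiescent stellate cells, was listed at 0 in all 3 libraries, and DES, COL1A2 and PDGFRA stayed at or below 0.14 FPKM. Among epithelial markers KRT8 and KRT18 were at 120.96 and 382.22 FPKM in vehicle, while CDH1 did not exceed 0.01. The blood cell marker CD68 was at 47.53 FPKM in vehicle, the hepatocyte marker ALB was between 1.89 and 2.49 FPKM, and the 3 endothelial markers were below 1. The summed level of the epithelial list was 503.3 FPKM in vehicle, 307.85 at the lower dose and 302.28 at the higher dose, that of the stellate list was 911.53, 1061.28 and 1062.61, and that of the blood cell list was 51.81, 46.98 and 42.35. The hepatocyte list summed to 2.39, 2.89 and 2.36 FPKM and the endothelial list to 0.5, 0.4 and 0.47. Their part in the results was not tested. The number of genes listed at 1 FPKM or more was 8890 in vehicle, 10925 at the lower dose and 10894 at the higher dose.

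In the vehicle library the subunits of one stoichiometric complex were listed at levels from 0.82 to 458.4 FPKM (46 tested genes). With rhFGF19 most of the low subunits were higher, most of the high ones were lower, and the range was narrower. Most other genes moved the same way. Under 20 FPKM in vehicle, 23 of 25 tested members were above vehicle at the lower dose, beside 7692 of all 10208 tested genes. At or above 20 FPKM, 18 of 21 members were below vehicle, beside 1791 of all 2239 genes. In bulk RNA such a difference in level cannot be told apart from one in the share of cells that express a gene. At each dose 18 of the 46 tested genes were more than 2-fold above vehicle and 0 were more than 2-fold below. The 18 make 39.1% of the tested members, beside 39.4% of all tested genes at the lower dose and 38.5% at the higher dose, so the share past 2-fold was close to the background. Among all genes 1.78% were more than 2-fold lower at the lower dose and 1.58% at the higher dose. The median log2 fold change of the members was 0.25 at the lower dose and 0.24 at the higher dose, below the medians of 0.62 and 0.61 over all tested genes. Another 20 members were below vehicle at both doses, 7 were above it but not past 2-fold, and 1, PSMG4, had opposite signs. Of all 12447 tested genes 4289 were below vehicle at the lower dose and 4257 at the higher dose. Together the 47 genes took 1.12% of the summed FPKM in vehicle, 0.998% at the lower dose and 0.990% at the higher.

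**Figure D1:**
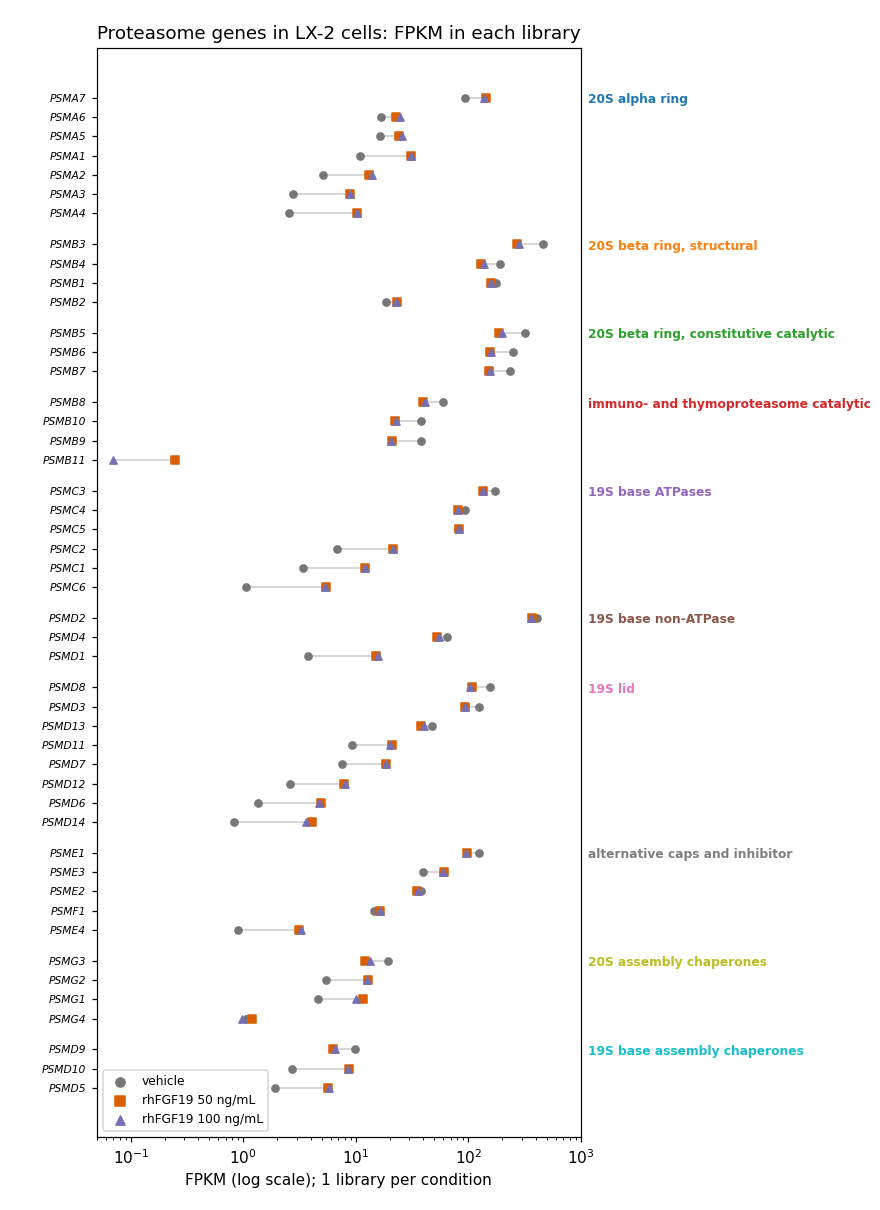
FPKM of each proteasome gene (log axis) in the vehicle, 50 ng/mL and 100 ng/mL libraries, ordered by role and by the vehicle level; each symbol is 1 library and a value of 0 (PSMB11 in vehicle) is not drawn. Most genes below 20 FPKM in vehicle moved right with rhFGF19, with PSMD9 and PSMG3 as exceptions at both doses and PSMG4 at 100 ng/mL, and most genes above 20 FPKM moved left, while the symbols of both doses nearly coincide.

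The alpha ring, which gates the entry of the core, was above vehicle as a whole. All 7 alpha subunits were higher at both doses, 4 of them by more than 2-fold. Of all 12447 tested genes 8140 were above vehicle at the lower dose and 8165 at the higher dose. Past 2-fold were 39.4% and 38.5%. The median log2 fold change of the alpha ring was 1.34 at the lower dose and 1.41 at the higher dose. PSMA4 was listed at 2.57 FPKM in vehicle, 10.34 at the lower dose and 10.24 at the higher dose, log2 fold changes of 1.97 and 1.95. PSMA3 was at 2.79, 8.93 and 8.84 FPKM in the same order. PSMA2 went from 5.16 to 13.25 and 13.84 FPKM, and PSMA1 from 11.02 to 30.76 and 30.71. In each of these genes both rhFGF19 libraries lay far above vehicle and close to each other. The remaining alpha subunits stayed under 2-fold. PSMA5 was at 16.49, 24.27 and 25.59 FPKM, PSMA6 at 16.92, 22.59 and 24.51, and PSMA7, the most abundant alpha subunit in every library, at 93.89, 142.93 and 139.28. PSMA6 overlaps another listed gene on its own strand, AL121594, which was at 1.76, 13.3 and 12.99 FPKM, so reads of the pair may not be fully separable.

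The beta ring, which lines the proteolytic chamber, went the other way. Of its 7 constitutive subunits 6 were below vehicle at both doses, none by 2-fold. All 6 were at 178.03 FPKM or more in vehicle. Of all 2239 tested genes at or above 20 FPKM in vehicle, 1791 were below vehicle at the lower dose and 1782 at the higher dose. The catalytic subunits were PSMB5, the chymotrypsin-like site, at 320.12, 186.9 and 201.09 FPKM, PSMB6, the caspase-like site, at 247.93, 156.93 and 159.15, and PSMB7, the trypsin-like site, at 232.98, 154.18 and 156.57. Their log2 fold changes were −0.78, −0.66 and −0.60 at the lower dose and −0.67, −0.64 and −0.57 at the higher dose, so the 3 proteolytic sites were lower by similar amounts. The structural subunit PSMB3 was the most abundant proteasome gene in vehicle, at 458.4 FPKM, and was at 273.45 and 284.11 with rhFGF19. PSMB4 was at 189.78, 130.13 and 138.15 FPKM. PSMB1 was at 178.03, 157.65 and 158.64, log2 fold changes of −0.18 and −0.17. PSMB2 alone of the ring was higher, at 18.44, 23.19 and 23.01 FPKM, and it was also the lowest beta subunit in every library. The median level of the beta ring was 21.1 times that of the alpha ring in vehicle, 6.95 times at the lower dose and 6.47 times at the higher dose, although both rings hold equal numbers of subunits in the particle.

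The immunoproteasome subunits were expressed without added interferon and were lower with rhFGF19, with a median log2 fold change of −0.76 at the lower and −0.73 at the higher dose, beside −0.66 and −0.64 for the constitutive catalytic subunits they replace. PSMB8, the counterpart of PSMB5, was at 59.43 FPKM in vehicle, 39.92 at the lower dose and 41.24 at the higher dose. PSMB9, the counterpart of PSMB6, was at 37.81, 21.04 and 20.78 FPKM, the lowest log2 fold changes of all members at −0.84 and −0.86. PSMB10, the counterpart of PSMB7, was at 38.09, 22.44 and 22.98 FPKM. The ratio of an immunoproteasome subunit to its constitutive counterpart stayed between 0.131 and 0.214 in all 3 pairs and libraries. PSMB8 over PSMB5 was 0.186 in vehicle, 0.214 at the lower dose and 0.205 at the higher dose, PSMB9 over PSMB6 was 0.153, 0.134 and 0.131, and PSMB10 over PSMB7 was 0.163, 0.146 and 0.147. The ratios did not move in one direction. PSMB8, PSMB9 and TAP1 overlap one another in turn on opposite strands of chromosome 6, and the counting is not stated to use strand. PSMB11, the thymus-specific catalytic subunit, was listed at 0 in vehicle, 0.25 at the lower dose and 0.07 at the higher dose and did not pass the filter.

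The ATPase ring of the cap split evenly. PSMC1, PSMC2 and PSMC6 were more than 2-fold above vehicle, and PSMC3, PSMC4 and PSMC5 were within 1.3-fold of it. PSMC6 (ENSG00000100519, chromosome 14 from 52707178 to 52727995) had the highest log2 fold changes of all members, 2.26 and 2.23, with 1.06 FPKM in vehicle, 5.45 at the lower dose and 5.33 at the higher dose. PSMC1 (ENSG00000100764, chromosome 14 from 90256527 to 90272550) was at 3.39, 12.08 and 11.98 FPKM, and PSMC2 (ENSG00000161057, chromosome 7 from 103344254 to 103369395) at 6.8, 21.39 and 21.54. In the other ATPases the levels were high from the start. PSMC3 (ENSG00000165916, chromosome 11 from 47418769 to 47426442) was at 173.87, 133.89 and 134.37 FPKM, PSMC4 (ENSG00000013275, chromosome 19 from 39971165 to 39981764) at 93.16, 81.61 and 80.72, and PSMC5 (ENSG00000087191, chromosome 17 from 63827152 to 63832019) at 80.71, 83.38 and 82.64. A processed copy of PSMC1, PSMC1P1, was at 0.94, 1.71 and 2.01 FPKM and may share reads with it.

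The coding sequences of these 6 paralogs, which occupy the same ring and descend from a common AAA ATPase, differ in base composition along the same line as the fold changes. The last 120 coding bases (40 codons, without the stop codon) of each are given from GENCODE 29 (GRCh38), with capitals marking G or C at position 3 of a codon. The first 3 belong to the genes that were more than 2-fold higher, the last 3 to those that were not.
PSMC1: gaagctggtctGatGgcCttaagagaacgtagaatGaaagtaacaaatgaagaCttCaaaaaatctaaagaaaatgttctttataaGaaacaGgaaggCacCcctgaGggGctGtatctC
PSMC2: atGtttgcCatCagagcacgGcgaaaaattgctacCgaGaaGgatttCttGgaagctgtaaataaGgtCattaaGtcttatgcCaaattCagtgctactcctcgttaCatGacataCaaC
PSMC6: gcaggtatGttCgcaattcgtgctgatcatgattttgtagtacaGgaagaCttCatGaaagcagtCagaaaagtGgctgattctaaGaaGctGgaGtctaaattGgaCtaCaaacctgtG
PSMC3: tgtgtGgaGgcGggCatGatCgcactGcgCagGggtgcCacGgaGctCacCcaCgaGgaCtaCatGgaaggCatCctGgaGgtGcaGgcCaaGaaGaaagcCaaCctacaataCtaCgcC
PSMC4: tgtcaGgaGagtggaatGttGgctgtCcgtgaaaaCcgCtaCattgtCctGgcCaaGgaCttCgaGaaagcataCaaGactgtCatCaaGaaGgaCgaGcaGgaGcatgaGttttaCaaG
PSMC5: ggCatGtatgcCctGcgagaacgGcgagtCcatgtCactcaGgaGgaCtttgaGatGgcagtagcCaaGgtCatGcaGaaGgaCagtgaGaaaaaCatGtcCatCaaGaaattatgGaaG
PSMC1, PSMC2 and PSMC6 carry G or C at 14, 18 and 16 of the 40 codons at position 3, and PSMC3, PSMC4 and PSMC5 at 33, 28 and 27. Over the whole coding sequence the share of codons with G or C at position 3 was 46.8%, 43.0% and 35.7% in the genes with the larger fold changes. It was 73.6%, 71.5% and 61.3% in the others. The median GC content of the listed transcripts, untranslated parts included, was 44.3%, 39.7% and 38.8% against 55.2%, 55.3% and 52.5%.

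The rest of the base and the lid divided in the same way. PSMD1, the large scaffold of the base, was at 3.74 FPKM in vehicle, 15.24 at the lower dose and 15.68 at the higher dose, 3.99-fold and 4.11-fold vehicle. PSMD2, the other scaffold, was at 409.46, 367.94 and 360.28 FPKM, and the ubiquitin receptor PSMD4 at 64.83, 53.21 and 54.74. PSMD2 was listed at 109 times PSMD1 in vehicle, 24.1 times at the lower dose and 23 times at the higher. In the lid 5 of the 8 PSM-named subunits, or 62.5%, were more than 2-fold higher, beside 39.4% of all tested genes at the lower dose and 38.5% at the higher dose. The lid subunit SEM1, described below, falls outside the rule and is not counted here. PSMD14, the deubiquitinase that removes ubiquitin chains, was the lowest listed member of the cap at 0.82, 4.08 and 3.62 FPKM, log2 fold changes of 2.18 and 2.02. It overlaps the pseudogene MXRA7P1 on the other strand, which was at 46.9, 38.92 and 21.6 FPKM. PSMD6 was at 1.34, 4.89 and 4.7 FPKM and PSMD12 at 2.61, 7.8 and 8.1. PSMD7, the inactive partner of PSMD14, was at 7.5, 18.61 and 18.57, and PSMD11 at 9.21, 21.19 and 20.25. The other PSM-named lid subunits, all at 47.49 FPKM or more in vehicle, were lower at both doses. PSMD8 was at 154.64, 108.85 and 104.65 FPKM, PSMD3 at 124.13, 93.88 and 93.2, and PSMD13 at 47.49, 37.7 and 40.47. Over the 17 PSM-named subunits of base and lid the median log2 fold change was 1.19 at the lower dose and 1.13 at the higher dose. Of these 9, or 52.9%, were past 2-fold at each dose. For the 14 constitutive subunits of the core the medians were 0.37 and 0.42, with 4, or 28.6%, past 2-fold.

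**Figure D2:**
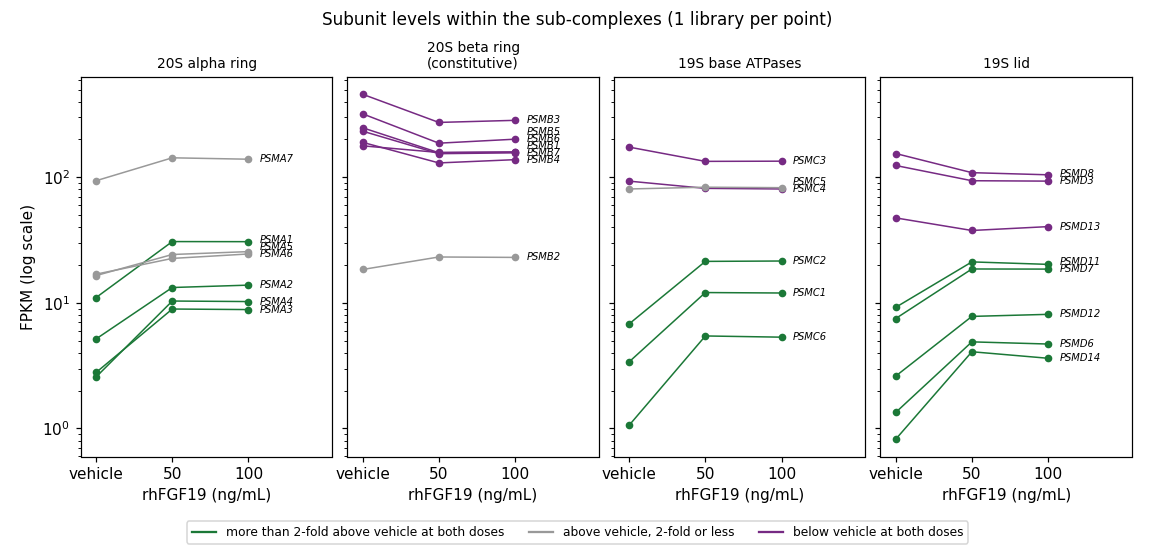
FPKM (log axis) of the subunits of 4 sub-complexes in the vehicle, 50 ng/mL and 100 ng/mL libraries; a line joins the 3 libraries for 1 gene. Genes more than 2-fold above vehicle at both doses (green) start low and those below vehicle (purple) start high, so the lines of a sub-complex converge.

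The narrowing was present in the core, the ATPase ring and the lid. Over all tested genes, too, most low genes were higher and most high ones lower. In the vehicle library the highest of the 14 constitutive core subunits was 178 times the lowest, and the ratio was 30.6 at the lower dose and 32.1 at the higher dose. The SD of log2 FPKM over these 14 genes went from 2.67 to 1.77 and 1.78. For the ATPases the ratio was 164, 24.6 and 25.2, and for the lid 189, 26.7 and 28.9. The order of the genes was kept: the Spearman correlation of the FPKM of the 46 genes with those in vehicle was 0.96 at the lower dose and 0.97 at the higher dose, and it was 0.999 between the doses. These correlations describe single libraries whose genes share length and base composition.

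The alternative caps, which open the core without ubiquitin recognition, were mostly near vehicle. PSME1 and PSME2, the interferon-responsive subunits of the PA28 ring, lie 4394 bases apart on chromosome 14. PSME1 was at 125.36 FPKM in vehicle, 97.29 at the lower dose and 95.35 at the higher dose, and PSME2 at 38.08, 34.99 and 35.51. Their ratio was 3.29, 2.78 and 2.69, although the proteins join into one ring. Both overlap other listed genes on the opposite strand. PSME1 overlaps EMC9, at 54.82, 30.87 and 32.05 FPKM. PSME2 overlaps AL136295, at 19.68, 13.17 and 17.08, and RNF31, at 7.03, 4.92 and 1.83. PSME3, the nuclear PA28 subunit, was at 39.36, 61.26 and 60.07 FPKM. PSME4, the large PA200 cap, was the exception past 2-fold, at 0.9, 3.16 and 3.26 FPKM. The inhibitor PSMF1 was at 14.58, 16.43 and 16.34.

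The assembly factors held members of each kind. PSMG1 and PSMG2, which form the dimer that starts the alpha ring, were both more than 2-fold higher. PSMG1 was at 4.59, 11.52 and 10.13 FPKM and PSMG2 at 5.43, 12.77 and 12.59. The partners of the second dimer differed from them: PSMG3 was at 19.18, 12.02 and 13.47 FPKM and PSMG4 at 1.06, 1.19 and 0.98. Among the chaperones of the base PSMD5 was at 1.9, 5.69 and 5.81 FPKM and PSMD10 (gankyrin) at 2.71, 8.67 and 8.56, whereas PSMD9 was at 9.77, 6.29 and 6.48. PSMD9 and PSMG3 were the members below 20 FPKM in vehicle that were lower with rhFGF19 at both doses, and PSMG4 was listed lowest among those not past 2-fold.

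**Figure D3:**
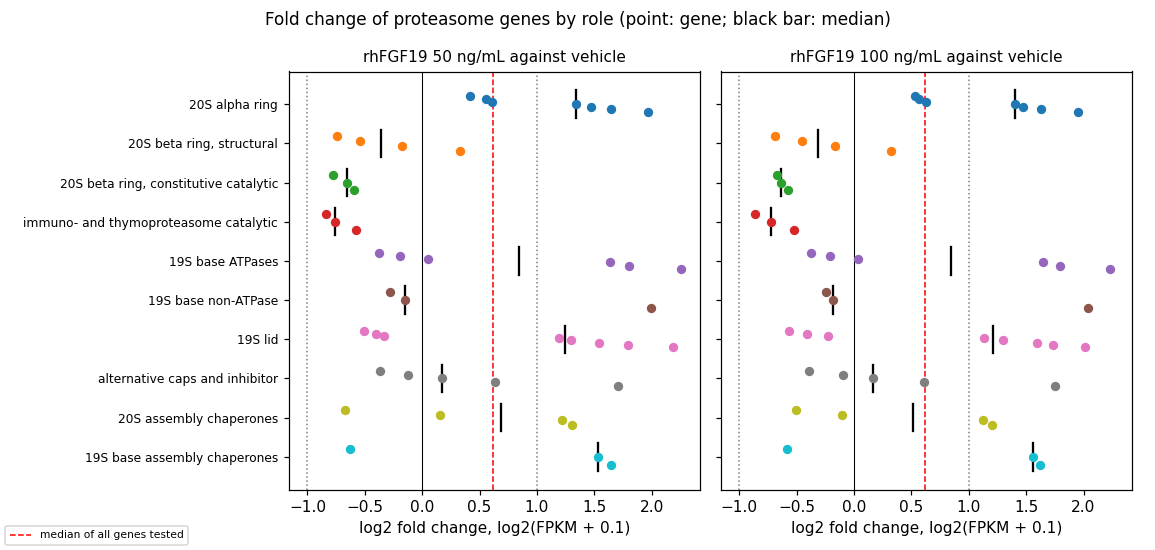
Log2 fold change against vehicle at 50 ng/mL (left) and 100 ng/mL (right) for the 46 tested members by role; points are genes, black bars the median of a role, dotted lines 2-fold and the dashed line the median of all genes tested. The alpha ring, the lid, the base ATPases and the base assembly chaperones have medians above that line at both doses. The 20S assembly chaperones do so at 50 ng/mL only. The catalytic beta subunits and immunoproteasome subunits lie below 0 throughout.

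The 18 genes past 2-fold shared properties that the rule did not use. Their vehicle level was between 0.82 and 11.02 FPKM, and the GC content of their transcripts between 38.2% and 46.9%. With a limit at 48% GC, set after the values were seen, 18 of the 22 members below it were more than 2-fold higher, or 81.8%, beside 79.1% of all genes below it at the lower dose and 78.5% at the higher dose. Of the 24 tested members at or above it 0 were, beside 14.5% and 13.4% of all genes. With a limit at 20 FPKM in vehicle, likewise set afterwards, the counts were 18 of 25 below it, or 72%, beside 47.4% of all tested genes below it at the lower dose and 46.2% at the higher dose. At or above it they were 0 of 21, beside 3.39% and 3.35% of all tested genes. Across the 46 members the Spearman correlation of the log2 fold change with transcript GC content was −0.83 at the lower dose and −0.84 at the higher dose. Across the 12397 tested genes with a GC value it was −0.77 at both doses. With the vehicle level it was −0.81 at both doses among members and −0.60 among all genes, where the vehicle level enters both quantities. Among members GC content and vehicle level went together, at 0.70. Transcript length showed little relation among members, at 0.035 and 0.050. The vehicle library is the only one without rhFGF19, so its preparation and the absence of rhFGF19 cannot be told apart.

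Set against genes of similar GC content, the beta ring stood lowest. After a locally weighted trend on transcript GC content over all genes was removed, the median of the members was −0.35 at the lower dose and −0.30 at the higher dose, and all 7 constitutive beta subunits were below the trend, with medians of −1.25 and −1.13. At each dose 0 members were more than 2-fold above the trend and 7 were more than 2-fold below it, or 15.2% of the 46. Among all genes 3.85% were more than 2-fold above and 5.07% below the trend at the lower dose, and 3.4% above and 4.52% below at the higher dose. The 7 were PSMB1, PSMB3, PSMB4, PSMB5, PSMB7, PSMB9 and PSMD9. PSMB7 was at −1.51 and −1.48, PSMB4 at −1.50 and −1.40, and PSMB1 at −1.47 and −1.44. PSMB1 shows the size of the step: its transcripts have 44.5% GC, where the trend at the lower dose was 1.296, while its own log2 fold change was −0.18. At the other end were PSMC6 with 0.76 and 0.75, PSMD1 with 0.69 and 0.75, and PSMD14 with 0.70 and 0.55, none of them past 2-fold relative to the trend. The alpha ring had medians of 0.15 and 0.16, with 3 of its 7 genes below the trend at each dose. For the 17 PSM-named subunits of base and lid the medians were 0.055 and 0.0066, and for those of the lid alone 0.059 and 0.069. When a trend on mean FPKM was removed as well, a step added after the values were seen, the median of the members was −0.046 and −0.056. That of the beta ring was −0.77 and −0.70. At the lower dose 5 of the 46 members were more than 2-fold below and at the higher dose 4, beside 4.57% and 4.13% of all genes. The 4 below at both doses were PSMB1, PSMB7, PSMB9 and PSMD9.

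**Figure D4:**
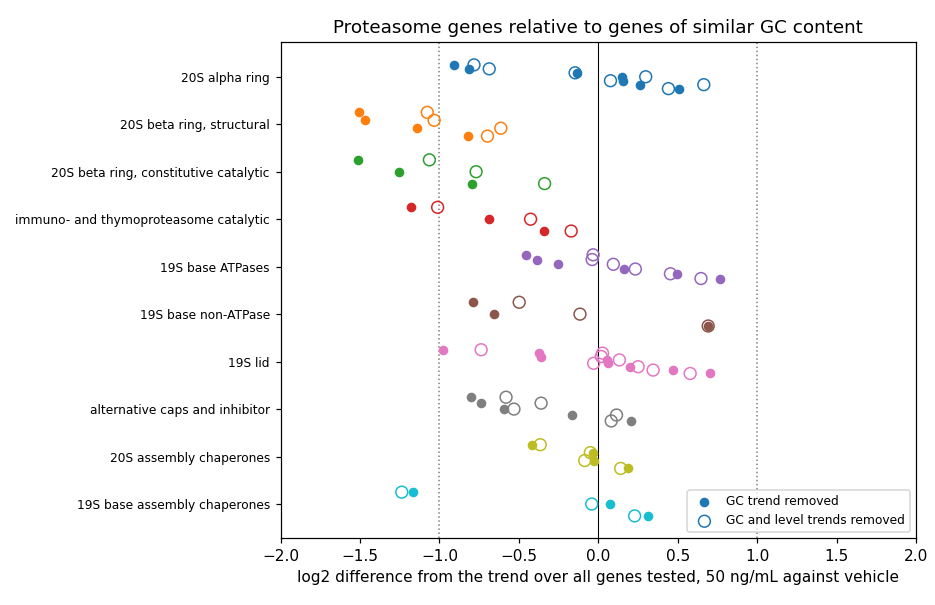
Log2 difference of each tested member from the trend over all genes at 50 ng/mL, by role, with the GC trend removed (filled) and with the GC and level trends removed (open); dotted lines mark 2-fold. Every beta ring subunit lies left of 0 on both measures, and PSMB7 is furthest left with the GC trend removed, at −1.51.

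The rhFGF19 libraries differed little from each other in these genes. The median absolute log2 difference between the doses was 0.031 among members and 0.089 over all tested genes. Among members 0 were more than 2-fold apart, where 1.73% of all genes were. The widest difference was that of PSMG4, at 0.26, and the next was 0.18.

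Genes that work with the proteasome but carry other names were described from a list of 36, all of which passed the filter. At the lower dose 16 of the 36 were more than 2-fold higher and at the higher dose 15, with 0 lower, beside the 39.4% and 38.5% of all tested genes that were higher. Among 11 proteasome-bound proteins 7 were past 2-fold at the lower dose and 6 at the higher dose. POMP, the maturation factor of the beta ring, was at 53.52 FPKM in vehicle, 91.57 at the lower dose and 96.65 at the higher dose, and so was above vehicle where 6 of the 7 constitutive beta subunits were below it. With the GC trend removed, however, POMP was below the trend, at −0.77 and −0.69, as all 7 of these beta subunits were. Its transcripts have 34.3% GC. The ubiquitin receptor ADRM1 was at 302.28, 172.75 and 174.27 FPKM. SEM1, the smallest lid subunit, was at 1.25, 2.21 and 2.53 FPKM. The deubiquitinases of the cap were higher, USP14 at 4.96, 15.06 and 14.85 FPKM and UCHL5 at 0.31, 0.99 and 0.98. So were the ubiquitin ligase UBE3C at 3.62, 9.03 and 9.47, the adaptor ECPAS at 2.96, 8.65 and 8.47, ZFAND5 at 3.23, 9.96 and 8.89, and the thioredoxin-like TXNL1 at 1.41, 2.96 and 3.59.

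Among all 12447 tested genes 4508 were more than 2-fold higher at both doses. Of the 5 ubiquitin and ubiquitin-activating genes 0 were past 2-fold. Of 10 shuttle and p97 genes 5 were, at both doses. These were the shuttle receptors UBQLN1 at 4.23, 13.5 and 13.18 FPKM, UBQLN2 at 3.17, 7.71 and 7.71, and RAD23B at 11.09, 30.89 and 30.71, the p97 cofactor FAF1 at 1.24, 5.49 and 5.14, and DDI2, the protease that processes NFE2L1, at 0.26, 1.04 and 0.89. NFE2L1, the factor that raises proteasome transcription when the particle is impaired, was at 71.79, 102.63 and 95.77 FPKM and under 2-fold. Its relative NFE2L2 was at 0.79, 3.36 and 3.32, the deglycosylase NGLY1 at 0.45, 1.38 and 1.35, and the CCAAT-binding subunit NFYA at 1.88, 4.74 and 4.44. On the interferon side IRF1, a transcription factor that interferon induces, was at 19.01, 18.01 and 17.93 FPKM and NLRC5, the transactivator of MHC class I genes, at 4.44, 4.15 and 4.05. The peptide transporter genes were TAP1 at 55.75, 43.79 and 43.0 FPKM and TAP2 at 18.72, 18.67 and 18.25. TAP1, which lies beside PSMB9, was lower, as PSMB8 and PSMB9 were, while TAP2 was near vehicle. TAPBP, from the same list, was above vehicle, at 33.29, 43.81 and 42.91 FPKM.

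The promoters were examined for base composition and for the letters of 4 motifs. Windows from 250 bases before to 50 after the RefSeq gene starts (GRCh38.p14) were found for 41 of the 47 genes, 50 windows in all. Their median GC content was 62.2%, beside 58.7% over 35116 windows of all genes, and the Spearman correlation of the log2 fold change at the lower dose with promoter GC was 0.084 over 40 genes. The letters of the antioxidant response element core, TGACNNNGC, which NFE2L1 and NFE2L2 bind, were present on either strand in 30% of the members' windows and 13.3% of all windows. Members past 2-fold held it in 7 of 18 and the other tested members in 8 of 22. The STAT core TTCNNNGAA was present in 14% of the members' windows and 7.66% of all, in 1 of 18 members past 2-fold and 6 of 22 others. The IRF core AANNGAAA was present in 26% and 22.8% of the windows, in 5 of 18 and 8 of 22 members. The CCAAT box was present in 40% and 34.6%, in 9 of 18 and 10 of 22 members. Of the response element matches 6 are shown to compare genes past 2-fold, which come first, with genes that were lower, each written along the strand of the match with the core in capitals and 12 bases on each side.
PSMA4, chr15:78540648-78540680, + strand: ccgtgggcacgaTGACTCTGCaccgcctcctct
PSMD12, chr17:67366722-67366754, - strand: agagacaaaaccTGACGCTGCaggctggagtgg
PSME4, chr2:53971007-53971039, + strand: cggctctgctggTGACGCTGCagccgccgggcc
PSMB3, chr17:38752625-38752657, + strand: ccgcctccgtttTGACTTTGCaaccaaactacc
PSMD3, chr17:39980758-39980790, + strand: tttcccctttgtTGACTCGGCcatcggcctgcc
PSMB9, chr6:32854032-32854064, - strand: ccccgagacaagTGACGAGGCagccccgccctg
The match lies 126 bases before the start in PSMA4, 165 in PSMD12, 34 in PSME4, 104 in PSMB3, 37 in PSMD3 and 148 in PSMB9. The core was thus found in genes at 10.24 FPKM after a log2 change of 1.95 (PSMA4 at the higher dose) and in genes at 284.11 FPKM after one of −0.69 (PSMB3). A match of letters is a description and no evidence of binding.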

How the data were processed

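The mRNA of 3 LX-2 cultures (vehicle, 50 and 100 ng/mL rhFGF19) was sequenced as poly(A)-selected paired-end libraries, 1 per condition. The authors deposited FPKM values for 26108 genes, written to 2 decimals. The paper names HISAT2 for mapping, and the submitters' processing notes list HISAT2 2.0, StringTie 1.3.0 and Bowtie 0.12.2 with the builds hg19 and mm8, without their roles. The coordinates of all 47 members overlapped GRCh38 positions in GENCODE 29. FPKM values keep no read counts, so the depth is unknown and no interval or count test was available. Whether counting used strand is not given in the sources used here, and 23 members overlap another listed gene, 7 of them on the same strand.

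Differences of log2(FPKM + 0.1) were taken between pairs of libraries over the genes averaging 0.5 FPKM or more, and a gene was counted as changed past 2-fold, the criterion of the paper. The SD of the difference between the rhFGF19 libraries over members, 0.074 on the log2 scale, set the size at which a value counted as moved under an alternative. Transcript GC content and length were taken from GENCODE 29 as the median of a gene's listed transcripts and were found for 99.6% of the tested genes. Trends over all tested genes were fitted by loess (span 0.3) and subtracted. All members were named, with other pathway genes from a list of 36. Of these, 1 is not reported here. The members, lists and roles were chosen with earlier results of these data known. The alternatives were 10 planned ones (pseudocounts, filters, scalings, trends, threshold and averaging of the rhFGF19 libraries) and 2 added after seeing the data. The trend removal was tested on simulated data, in which the covariate was drawn independently of the expression level. In the real data GC content and vehicle level correlated at 0.50 over all tested genes (Spearman), a setting the simulation did not cover. Python 3.11.15 was used with NumPy 2.4.6, pandas 2.3.3, SciPy 1.17.1, statsmodels 0.14.6 and Matplotlib 3.10.9.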

Additional observations from a re-analysis of the deposited data

Results flagged for a closer look

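PSMG4, a chaperone of 20S assembly, was on opposite sides of vehicle at the 2 doses, with a log2 fold change of 0.15 for 50 ng/mL and −0.10 for 100 ng/mL. Its level was 1.06 FPKM without rhFGF19, 1.19 with 50 ng/mL and 0.98 with 100 ng/mL. The difference was not tested, since each value comes from 1 library.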

How the results depend on the processing

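No paired analysis was possible because each condition has 1 library, and for the same reason no replicate could be left out. The numbers more than 2-fold higher were 18 at each dose and stayed within 1.5 times of it except after GC correction: they were 0 and 0 with the trend on transcript GC removed, 0 and 0 with the trends on GC and mean FPKM removed, and 1 and 1 with the trend on GC of the longest transcript removed. The numbers more than 2-fold lower, 0 at each dose, were 2 and 1 with the median ratio to vehicle set to 0, 9 and 8 relative to genes of similar length, 7 and 7 with the GC trend removed, 5 and 4 with the GC and level trends removed, and 8 and 7 with the GC of the longest transcript. The median log2 fold change of the members at 50 and 100 ng/mL was 0.33 and 0.32 when low genes were kept, 0.38 and 0.34 with TPM, and 0.021 and 0.018 with the median ratio to vehicle set to 0. It was −0.35 and −0.30 with the GC trend removed, −0.27 and −0.40 relative to genes of similar length, −0.046 and −0.056 with the GC and level trends removed, and −0.28 and −0.30 with the trend on GC of the longest transcript removed. Trend removal centres all genes near 0, so these signs are relative to genes of similar composition, length or level. Under the other scalings the median over all genes at 50 ng/mL was 0.27 with low genes kept, 0.77 with TPM and 0.39 with the median ratio set to 0. The sign changed with the GC trend removed for 9 of the 46 members at the lower and 8 at the higher dose, with the GC and level trends removed for 13 and 9, with the GC of the longest transcript for 8 and 6, relative to genes of similar length for 4 and 3, and under each other setting for 3 or fewer. With the GC trend removed the medians of the ATPases (−0.048 and −0.046), the 20S chaperones (−0.029 and −0.15) and the alternative caps (−0.59 and −0.59) also turned below 0. Among the genes and roles past 2-fold, the direction changed with the GC trend removed for PSMA2 (−0.14 and −0.059) and PSMG2 (−0.031 and −0.034). With the GC and level trends removed it changed for PSMA2 (−0.15 and −0.066), PSMG2 (−0.051 and −0.050), at 50 ng/mL for PSMD5 (−0.042), PSMD12 (−0.030) and the median of the base chaperones (−0.042), and at 100 ng/mL for PSMG1 (−0.024). With the GC of the longest transcript it changed for PSMA2 at 50 ng/mL (−0.064). The cause of the other shifts was not tested. Low genes such as PSMC6, PSMD14, PSME4 and PSMG4 rest on values near 1 FPKM in vehicle, whose precision the files do not give.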
